A study of Mus musculus with 12 samples.

Results

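The 9 genes described here encode the enzymes that make serine from a glycolytic intermediate and those that pass its carbon on to folate: Phgdh, Psat1, Psph, Shmt1, Mthfd1, Shmt2, Mthfd2, Mthfd1l and Aldh1l2. They were chosen by name, with earlier results of these data known, and all 9 are among the 20844 genes listed in both deposited tables. The samples were mouse embryonic fibroblasts, a primary culture from embryos of day 13.5 to 14.5, sequenced in 12 libraries, 3 in each of 4 groups. Cells homozygous for the inducible allele LSL-Nrf2D29H, infected with adenoviral Cre, are called Nrf2 D29H here. The same genotype given the empty adenovirus is titled Nrf2LSL/LSL (Nrf2 KO), since the allele is described as functionally silent until Cre acts; it is called the labelled knockout here. Cells homozygous for CA-Keap1R554Q are called Keap1 R554Q after adenoviral Cre, and Keap1 wild type after empty virus, when Keap1 is described as functionally normal. All 4 groups had virus at a multiplicity of 500 in pyruvate-free medium with 10% serum, and RNA was taken 4 days after infection. No group gave Cre to cells without an inducible allele, so Cre and the mutant allele cannot be told apart in either comparison. The labels do not say whether the 3 libraries of a group came from separate embryos or cultures, so p-values measure only the spread between these libraries, which may be technical.

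Serine synthesis starts from the glycolytic intermediate 3-phosphoglycerate and runs through the dehydrogenase PHGDH, the aminotransferase PSAT1 and the phosphatase PSPH. Serine then gives up a carbon to tetrahydrofolate and becomes glycine, through SHMT2 in mitochondria or SHMT1 in the cytosol. The mitochondrial unit is oxidised by MTHFD2 and released as formate by MTHFD1L, or burned to carbon dioxide with a gain of NADPH by ALDH1L2, and cytosolic MTHFD1 takes the formate up again for purine, thymidylate and methionine synthesis. The serine synthesis genes and several of the mitochondrial ones are known targets of the amino acid stress factor ATF4, and in some cancers NRF2, the transcription factor that KEAP1 marks for degradation, has been tied to serine synthesis through ATF4.

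Depth was 14963004 counted reads in labelled-knockout replicate 3 and 19661193 to 23818477 in the other libraries, and each of the 9 genes had 273 to 12366 reads in every library. Nfe2l2, the gene of NRF2, had 42.6 ± 3.42 CPM (reads relative to TMM-scaled library size, over the 12 libraries; mean ± SD, n = 3) in the labelled knockout against 53.1 ± 3.80 CPM in D29H, so its transcript was present in both. Nqo1, a standard NRF2 target, had 8.82 ± 1.73 CPM in the labelled knockout, 119 ± 13.1 CPM in D29H, 33.2 ± 0.246 CPM in Keap1 wild type and 351 ± 39.7 CPM in R554Q. All 7 NRF2 target genes examined rose in both comparisons (edgeR's quasi-likelihood test, Benjamini-Hochberg adjusted p under 0.05). Fibroblast markers (7 genes) summed to 14137 to 19631 CPM per library, and macrophage markers to 107 to 149 CPM in the Nrf2 groups and 62.1 to 97.3 CPM in the Keap1 groups. Endothelial, epithelial and muscle markers each summed to under 24 CPM in every library, and neural ones to 55.5 to 73.1 CPM.

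Per kilobase of transcript, the first steps of serine synthesis were by far the most abundant of the 9. Phgdh averaged 220 RPKM (CPM per kilobase of the listed gene length) over the 12 libraries, above 97.7% of the 14794 genes tested, and Psat1 133 RPKM. Psph, the last step, was at 11.6 RPKM. In the mitochondrial arm Shmt2 averaged 56.2 RPKM, Mthfd2 34.3 RPKM, Mthfd1l 10.4 RPKM and Aldh1l2 6.51 RPKM. In the cytosolic arm Mthfd1 had 16.5 RPKM and Shmt1 5.88 RPKM, close to the median gene (49.6% of genes were lower). Mitochondrial Shmt2 therefore stood 8.64 ± 0.780 times (SD, n = 3) above cytosolic Shmt1 in the labelled knockout and 9.75 to 10.2 times above it in the other 3 groups.

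The tables place Phgdh (ENSMUSG00000053398) at chr3:98313170-98339990, Psat1 (ENSMUSG00000024640) at chr19:15904678-15947337 and Psph (ENSMUSG00000029446) at chr5:129765558-129787252, all on the minus strand of GRCm38 (mm10). Shmt1 (ENSMUSG00000020534) lies at chr11:60788104-60811718, minus strand, and Mthfd1 (ENSMUSG00000021048) at chr12:76255232-76319820, plus strand. Shmt2 (ENSMUSG00000025403; chr10:127517123-127522444, minus strand), Aldh1l2 (ENSMUSG00000020256; chr10:83487450-83534140, minus strand) and Mthfd1l (ENSMUSG00000040675; chr10:3973118-4167081, plus strand) share a chromosome, and Mthfd2 (ENSMUSG00000005667) is at chr6:83305691-83317606, minus strand. Shmt1 overlaps Smcr8 on the opposite strand, a gene with 303% and 353% as many reads as Shmt1 in the Nrf2 and Keap1 tables. Whether counting used strand is not given in the sources used here, so the Shmt1 values are uncertain. Smcr8 itself had a log2 fold change of 0.03 in either comparison (edgeR adjusted p 0.872 and 0.850). The genes overlapping Shmt2 and Mthfd1l had at most 0.252% as many reads as their partner.

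RefSeq's table of promoters (GRCm38.p6) held 8 of the 9 genes; Aldh1l2 had no entry. The windows of Phgdh, Psat1 and Mthfd2 are shown because these genes are among the 4 whose mean fall over both alleles, given later, was called in every alternative run; bases inside annotated exons were left off, which leaves little of the fourth, Psph. The table holds 2 windows for Psat1; the one shown lies inside the gene as listed, outside its annotated exons, and the other, which reaches into a coding exon, is left out. Motifs were searched on both strands of the 250 bases upstream of the start, and capitals mark the only match found in the 8 genes.
Phgdh, chr3:98339991-98340219, minus strand: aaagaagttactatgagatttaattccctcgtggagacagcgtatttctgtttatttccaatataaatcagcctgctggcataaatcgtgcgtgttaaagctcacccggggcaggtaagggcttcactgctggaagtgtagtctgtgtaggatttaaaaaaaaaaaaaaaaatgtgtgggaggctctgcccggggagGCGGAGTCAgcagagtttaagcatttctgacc
Psat1, chr19:15925060-15925309, minus strand: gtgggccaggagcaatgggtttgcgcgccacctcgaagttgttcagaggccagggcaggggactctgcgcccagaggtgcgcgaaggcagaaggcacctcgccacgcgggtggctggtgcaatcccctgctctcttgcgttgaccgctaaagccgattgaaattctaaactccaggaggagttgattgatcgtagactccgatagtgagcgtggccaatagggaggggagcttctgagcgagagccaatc
Mthfd2, chr6:83317607-83317854, minus strand: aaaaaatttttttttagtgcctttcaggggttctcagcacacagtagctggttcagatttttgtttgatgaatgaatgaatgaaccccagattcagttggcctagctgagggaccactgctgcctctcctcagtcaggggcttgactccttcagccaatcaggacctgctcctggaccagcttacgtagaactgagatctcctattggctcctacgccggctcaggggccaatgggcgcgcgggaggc
The match in Phgdh, read on the opposite strand, is the antioxidant response element core TGACNNNGC, 53 to 45 bases upstream of the start. That motif is in 10.2% of 32851 promoter windows of the same length. Neither TGATGNAA, a half-palindromic element read by ATF4 with C/EBP partners (3.45% of windows), nor the E-box CACGTG (6.02%) was in any of these 8 genes' windows. A match is a description of the letters only, and no match says nothing about binding elsewhere.

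**Figure D1:**
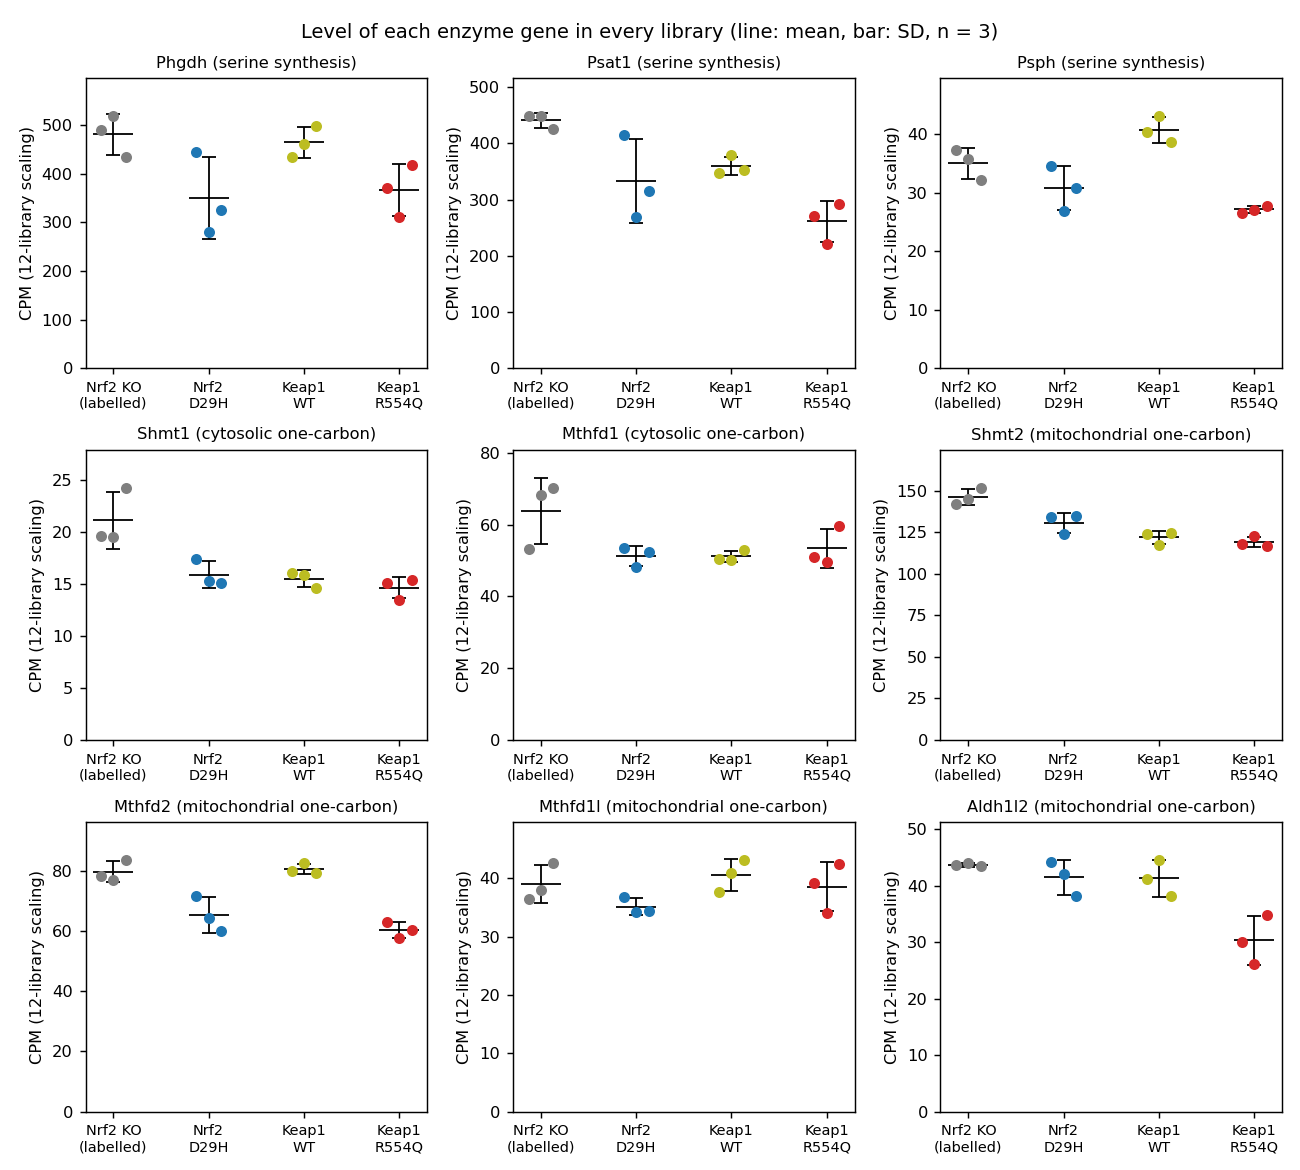
Level of each of the 9 genes in CPM (12-library scaling) in every library; points are libraries, lines are group means and bars are SD (n = 3), with each vertical axis starting at 0. Psph and Aldh1l2 are lowest in Keap1 R554Q, Mthfd2 is lower in both Cre groups than in both empty-virus groups, and Phgdh and Psat1 spread widely among the D29H libraries.

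In Nrf2 D29H against the labelled knockout, none of the 9 genes passed the threshold, while all 9 fold changes were below zero. The background was 1.28% of 14370 genes called lower and 3.47% called higher (edgeR's quasi-likelihood test, adjusted p under 0.05). At an unadjusted p under 0.05 there were 5 of the 9 (Phgdh, Psat1, Shmt1, Mthfd1 and Mthfd2), where 22.9% of all genes were. The median log2 fold change of all 9 was -0.29, beside 0.00041 over all genes tested. In bulk RNA, fewer cells of a type and less RNA per cell cannot be told apart.

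Phgdh had 445, 281 and 325 CPM in D29H replicates 1, 2 and 3 and 490, 518 and 435 CPM in those of the labelled knockout. Only D29H replicate 1 lay inside the knockout range, so the groups overlapped. Its log2 fold change was -0.46 (SE 0.14; 95% interval -0.74 to -0.18; edgeR adjusted p 0.0509). Psat1 followed the same libraries, with 415, 269 and 315 CPM in D29H and 448, 448 and 426 CPM in the labelled knockout. Here the groups did not overlap, though D29H replicate 1 stood just under the lowest knockout library (log2 fold change -0.41, SE 0.13; edgeR adjusted p 0.0676). Psph, with 34.5, 26.9 and 30.8 CPM against 37.2, 35.7 and 32.1 CPM, overlapped (log2 fold change -0.19, SE 0.11; edgeR adjusted p 0.296).

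D29H replicate 2, the lowest of its group for these 3 genes, also had the highest mitochondrial share of reads, 1.77% against 0.725% to 1.09% in the other 11 libraries; its part in the result was not tested. Without that library the log2 fold changes of Phgdh, Psat1 and Psph were -0.32, -0.27 and -0.10 (edgeR adjusted p 0.325, 0.380 and 0.733). Leaving out D29H replicate 1 instead gave -0.67, -0.60 and -0.29 (edgeR adjusted p 0.00200, 0.00290 and 0.0827). Phgdh, Psat1, Shmt1 and Mthfd2 then passed, 4 genes in all. Without labelled-knockout replicate 1 there were 2 (Shmt1 and Mthfd1) and without replicate 3 of that group 2 (Phgdh and Psat1). DESeq2 called 2 of the 9 lower (Phgdh and Psat1), beside 2.83% of genes, and limma 1 (Phgdh), beside 1.22%.

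In the cytosolic arm Shmt1 had 17.4, 15.3 and 15.1 CPM in D29H and 19.6, 19.5 and 24.3 CPM in the labelled knockout, with no overlap (log2 fold change -0.40, SE 0.12; edgeR adjusted p 0.0528). Mthfd1, which joins formate to folate, had 53.5, 48.2 and 52.3 CPM against 53.4, 68.2 and 70.2 CPM. One library of each group met near 53 CPM, and the log2 fold change was -0.32 (SE 0.11; edgeR adjusted p 0.0859). In the mitochondrial arm Mthfd2 had 71.7, 64.4 and 59.9 CPM against 78.4, 77.05 and 83.6 CPM, so every D29H library lay below every knockout library (log2 fold change -0.29, SE 0.10; edgeR adjusted p 0.0906). Shmt2 also did not overlap, with 134, 124 and 135 CPM against 142, 145 and 152 CPM (log2 fold change -0.16, SE 0.10; edgeR adjusted p 0.332). Mthfd1l and Aldh1l2 overlapped, with log2 fold changes of -0.15 and -0.08. In all, 4 of the 9 genes had no overlap with D29H lower, beside 13% of all genes tested.

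The 18 proliferation genes on a fixed list summed to 1543 to 1685 CPM in D29H and 1859 to 2100 CPM in the labelled knockout. Of these 18, 6 fell, among them Ccne1, which drives entry into DNA replication (log2 fold change -0.49), and the replication helicase subunits Mcm3 and Mcm2 (-0.46 and -0.45; edgeR adjusted p under 0.05), beside 1.28% of all genes called lower; the other 12 did not pass. The 6 became 0 without D29H replicate 2 or 3, 4 without labelled-knockout replicate 2 or 3, and 11 without D29H replicate 1. Over all genes, the 184 called lower became 9 and 10 without D29H replicate 2 and 3. The 7 fibroblast markers summed to 16060.1 to 16695 CPM in D29H and 18198 to 19631 CPM in the labelled knockout, lower without overlap, though none passed on its own in edgeR (2 at an unadjusted p under 0.05). The part of proliferation or of fibroblast markers in the enzyme values was not tested.

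In Keap1 R554Q against Keap1 wild type, 4 of the 9 genes fell and none rose: Psph, Mthfd2, Psat1 and Aldh1l2 (edgeR's quasi-likelihood test, adjusted p under 0.05). Over all 14128 genes tested, 2.4% were called lower and 3.77% higher. Their log2 fold changes ran from -0.58 to -0.41, a drop to 0.669 to 0.752 of the wild-type level. The median over all 9 was -0.34, beside -0.00099 over all genes.

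Psph, the phosphatase that completes serine, had 26.6, 27.1 and 27.7 CPM in R554Q and 40.4, 43.1 and 38.7 CPM in wild type. The R554Q libraries lay within about 1 CPM of each other and well under the lowest wild-type library. The log2 fold change was -0.58 (SE 0.09; 95% interval -0.76 to -0.40; edgeR adjusted p 0.000543). Psat1 had 270.5, 222 and 293 CPM in R554Q against 348, 379 and 353 CPM in wild type, again with no overlap (log2 fold change -0.45, SE 0.10; edgeR adjusted p 0.0101). Phgdh had 370, 311 and 419 CPM against 435, 460 and 498 CPM. Those groups did not overlap either, but R554Q replicate 3 came close to the lowest wild-type library (log2 fold change -0.34, SE 0.10; edgeR adjusted p 0.0532). It passed in 6 of 15 alternatives, DESeq2 and limma among them.

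Mthfd2, the mitochondrial dehydrogenase, had 63.0, 57.7 and 60.4 CPM in R554Q and 79.9, 82.7 and 79.3 CPM in wild type. Every R554Q library was below every wild-type library by more than the range within either group (log2 fold change -0.41, SE 0.08; edgeR adjusted p 0.00470). Aldh1l2 had 30.1, 26.2 and 34.8 CPM against 41.2, 44.6 and 38.1 CPM, without overlap (log2 fold change -0.44, SE 0.10; edgeR adjusted p 0.0201). The serine-splitting enzyme of the same compartment did not pass: Shmt2 had 118, 123 and 117 CPM in R554Q and 124, 117 and 125 CPM in wild type. Its log2 fold change was -0.03, with a 95% interval of -0.19 to 0.13. Mthfd1l (-0.07), cytosolic Shmt1 (-0.08) and Mthfd1 (0.07) overlapped between the groups too (edgeR adjusted p 0.681 to 0.712). In all, 5 of the 9 genes had no overlap with R554Q lower, beside 13.5% of all genes tested. The 18 proliferation genes summed to 1187 to 1346 CPM in R554Q and 1300 to 1378 CPM in wild type, ranges that overlapped, and 2 of them fell (Cdk1 and Tyms). Macrophage markers summed to 62.1 to 73.6 CPM against 86.8 to 97.3 CPM, and 1 of the 6 tested fell, Lyz2 (log2 fold change -0.53; edgeR adjusted p 0.00230). Muscle markers were lower without overlap (9.61 to 10.7 against 12.2 to 14.7 CPM), with Des, the only one tested, called lower. Neural markers were higher without overlap (66.9 to 73.1 against 58.7 to 64.7 CPM), with none of 3 passing in edgeR (1 at an unadjusted p under 0.05). Fibroblast markers overlapped, at 14137 to 15405 against 14293 to 16575 CPM, and 1 of 7 rose (Pdgfra). The part of these cell type and proliferation genes in the enzyme values was not tested.

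Psph and Mthfd2 were called in all 15 alternatives, Psat1 in 13 and Aldh1l2 in 11. The 4 calls became 2 (Psph and Mthfd2) without R554Q replicate 1, where Psat1 and Aldh1l2 had edgeR adjusted p of 0.0536 and 0.102, and likewise without wild-type replicate 2 (0.0614 and 0.114). Without R554Q replicate 2 or wild-type replicate 1, Aldh1l2 alone was lost (edgeR adjusted p 0.0792 and 0.0573). The authors' deposited table called 5 of the 9 lower in this comparison (the same 4 and Phgdh, adjusted p 0.0158), where it called 4.9% of the genes with an adjusted p. In the Nrf2 comparison the authors' deposited table called 2 (Phgdh, adjusted p 0.0237, and Psat1, 0.0342), where it called 2.91%.

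**Figure D2:**
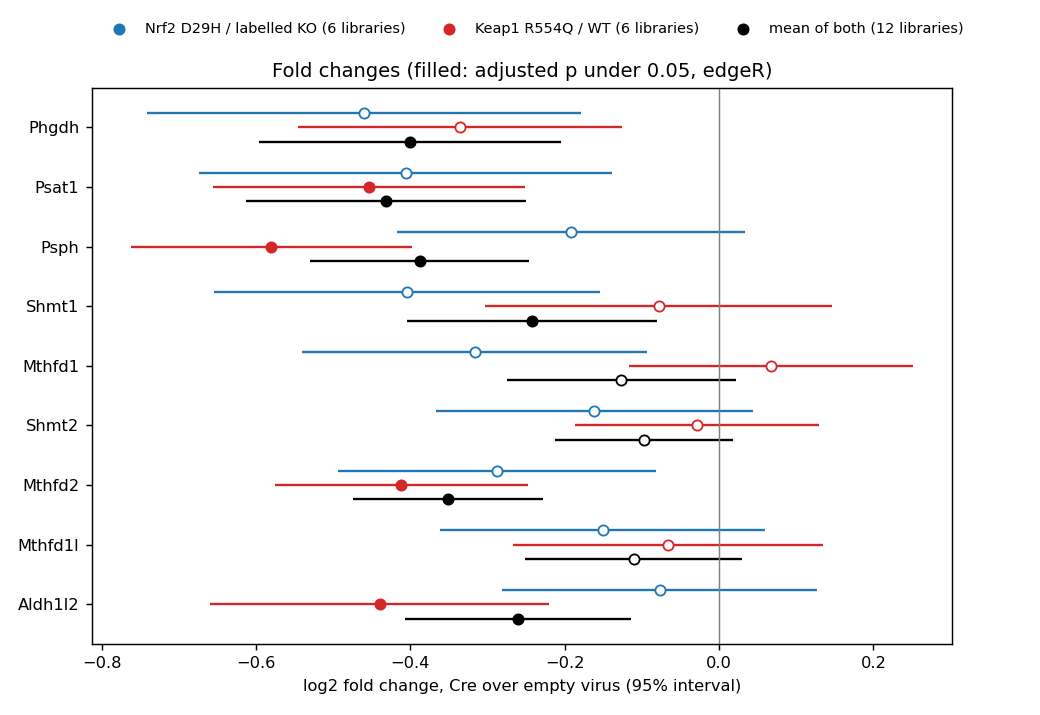
Log2 fold change of each gene, adenoviral Cre over empty virus, with its 95% interval, in the Nrf2 comparison (6 libraries), the Keap1 comparison (6 libraries) and their mean (12 libraries); filled points passed an adjusted p of 0.05 in edgeR. All 9 genes lie left of zero in the Nrf2 comparison and 8 of 9 in the Keap1 one, the exception being Mthfd1 at 0.07. Over all genes tested, 49.9% and 50.1% were below zero. The means also lie left of zero, but they use the same libraries and add no new samples.

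Averaged over both alleles in a fit of all 12 libraries, 6 of the 9 genes fell after Cre, beside 7.33% of 14794 genes called lower and 8.49% higher (edgeR's quasi-likelihood test, adjusted p under 0.05). All 3 serine synthesis genes were among them: Psat1 (log2 fold change -0.43, SE 0.09; edgeR adjusted p 0.00296), Phgdh (-0.40, SE 0.09; 0.00850) and Psph (-0.39, SE 0.07; 0.000907). Mthfd2 (-0.35, SE 0.06; edgeR adjusted p 0.000569) and Aldh1l2 (-0.26, SE 0.07; 0.0175) fell in the mitochondrial arm and Shmt1 (-0.24, SE 0.08; 0.0386) in the cytosolic one. For Aldh1l2 the fall lay mostly with R554Q (log2 fold change -0.44), while D29H gave -0.08 (edgeR adjusted p 0.678). For Shmt1 it lay mostly with D29H (-0.40, edgeR adjusted p 0.0528), while R554Q gave -0.08 (0.697). Neither gene passed when the effects of the alleles were tested against each other (edgeR adjusted p 0.333 and 0.454). Shmt2 (-0.10), Mthfd1l (-0.11) and Mthfd1 (-0.13) did not pass, with 95% intervals from -0.27 at the lowest to 0.03 at the highest. In the same fit 12 of the 18 proliferation genes and 5 of 11 purine synthesis genes were called lower, and none of either list higher. Their part in the enzyme values was not tested. This fit uses the same libraries as the separate comparisons, so it adds a shared estimate of the spread and no new samples.

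Phgdh, Psat1, Psph and Mthfd2 were called in all 20 alternatives, Aldh1l2 in 17 and Shmt1 in 10. Aldh1l2 was lost without D29H replicate 3, without R554Q replicate 2 and without wild-type replicate 2 (edgeR adjusted p 0.0609, 0.0608 and 0.0712). Shmt1 was lost without any of 8 libraries in turn: D29H replicate 2 or 3, labelled-knockout replicate 3, R554Q replicate 1 or 2, and each of the wild-type libraries (edgeR adjusted p 0.0541 to 0.106). It was also lost with the replicate numbers as a block. With GC and length offsets Shmt2 passed as well, at a log2 fold change of -0.16 (edgeR adjusted p 0.0323).

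The difference between the alleles was tested directly, by subtracting the R554Q effect from the D29H effect. None of the 9 genes passed in edgeR, beside 0.027% of genes called in either direction, nor by DESeq2 (0.494%) or limma (0.00676%). At an unadjusted p under 0.05 there were 3 of the 9, where 11.3% of genes were. Psph had a difference of 0.40 on the log2 scale (95% interval 0.11 to 0.68; edgeR adjusted p 0.321), Aldh1l2 one of 0.37 (0.08 to 0.66; 0.333) and Mthfd1 one of -0.38 (-0.67 to -0.08; 0.333). For Phgdh and Psat1 the differences were -0.12 (95% interval -0.51 to 0.28) and 0.06 (-0.31 to 0.42), intervals too wide to say that the alleles act alike. The calls of Psph and Aldh1l2 in the Keap1 comparison alone are thus not shown to be particular to it.

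The 2 kinds of empty-virus control also differed. Against Keap1 wild type, the labelled knockout was higher for 3 of the 9 genes, beside 9.58% of genes called higher and 10.1% lower: Shmt1 (log2 fold change 0.44, SE 0.11; edgeR adjusted p 0.00655), Mthfd1 (0.32, SE 0.10; 0.0284) and Shmt2 (0.26, SE 0.08; 0.0214). Psat1 (0.29; edgeR adjusted p 0.102) and Psph (-0.22; 0.125) did not pass, though their libraries did not overlap. At an unadjusted p under 0.05 there were 5 of the 9, where 31.4% of all genes were. In all, 4 genes had no overlap with the labelled knockout higher, beside 17.9% of all genes tested, and 1 with it lower, beside 19.1%. Phgdh, Mthfd2, Mthfd1l and Aldh1l2 overlapped, with log2 differences of -0.06 to 0.08.

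Proliferation genes stood higher in the same libraries: 16 of 18 were called higher in the labelled knockout, with sums of 1859 to 2100 CPM against 1300 to 1378 CPM in Keap1 wild type. Macrophage markers summed to 107 to 146 CPM against 86.8 to 97.3 CPM, and 5 of the 6 tested were called higher. Fibroblast markers summed to 18198 to 19631 CPM against 14293 to 16575 CPM, with 3 of 7 called higher. However, 4 of these 7 had log2 fold changes below zero, and their median was -0.04. The part of these lists in the enzyme values was not tested, and culture and genotype cannot be told apart. Shmt1 was called in all 20 alternatives. It was the only call without labelled-knockout replicate 2, labelled-knockout replicate 3, wild-type replicate 1 or wild-type replicate 2. With the replicate numbers as a block Shmt1 was again the only call. Mthfd1 was also lost without wild-type replicate 3 (edgeR adjusted p 0.0526), and Psat1 passed without D29H replicate 1 (0.0267), giving 4.

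Set in order over the 4 groups, the serine synthesis genes did not rank alike. Phgdh averaged 350 ± 84.9 CPM in D29H, 367 ± 54.1 CPM in R554Q, 465 ± 31.8 CPM in Keap1 wild type and 481 ± 42.3 CPM in the labelled knockout, and neighbours in that order overlapped except R554Q and wild type. Psat1 was lowest in R554Q at 262 ± 36.5 CPM, with D29H at 333 ± 74.7 CPM and Keap1 wild type at 360 ± 16.8 CPM, each overlapping the next, and the labelled knockout apart at 441 ± 12.7 CPM. Psph was highest in Keap1 wild type at 40.7 ± 2.21 CPM, apart from the labelled knockout at 35.0 ± 2.62 CPM. The ratio of Phgdh to Psat1 per kilobase was 1.45 ± 0.0280 in D29H and 1.51 ± 0.0941 in the labelled knockout, and 1.94 ± 0.0408 in R554Q and 1.79 ± 0.146 in Keap1 wild type. It was thus higher in every Keap1 library than in any Nrf2 library. Within the mitochondrial arm Mthfd2 stood 2.78 ± 0.241 times above Mthfd1l per kilobase in R554Q and 3.53 ± 0.256 times in Keap1 wild type, without overlap. The ratios in D29H and the labelled knockout were 3.29 ± 0.194 and 3.62 ± 0.171, also without overlap (highest 3.45 against lowest 3.47).

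Phgdh and Psat1 ranked the 3 libraries alike within D29H and within R554Q, but not within Keap1 wild type, where Phgdh was highest in replicate 3 and Psat1 in replicate 2, nor within the labelled knockout, where Psat1 was nearly level in replicates 1 and 2. After the group means were taken off, their log2 CPM had Pearson's r of 0.937 and Spearman's rho of 0.846 over the 12 libraries, and r was 0.838 without D29H replicates 1 and 2, the libraries farthest out. The 36 pairs of the 9 genes had a median r of 0.425, from -0.528 (Shmt2 with Aldh1l2) to this pair, and 32 were above zero. Phgdh with Psph had r 0.709, but 0.272 without those same libraries. These values are a description, since the libraries share group means, scaling and any library-wide effect.

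**Figure D3:**
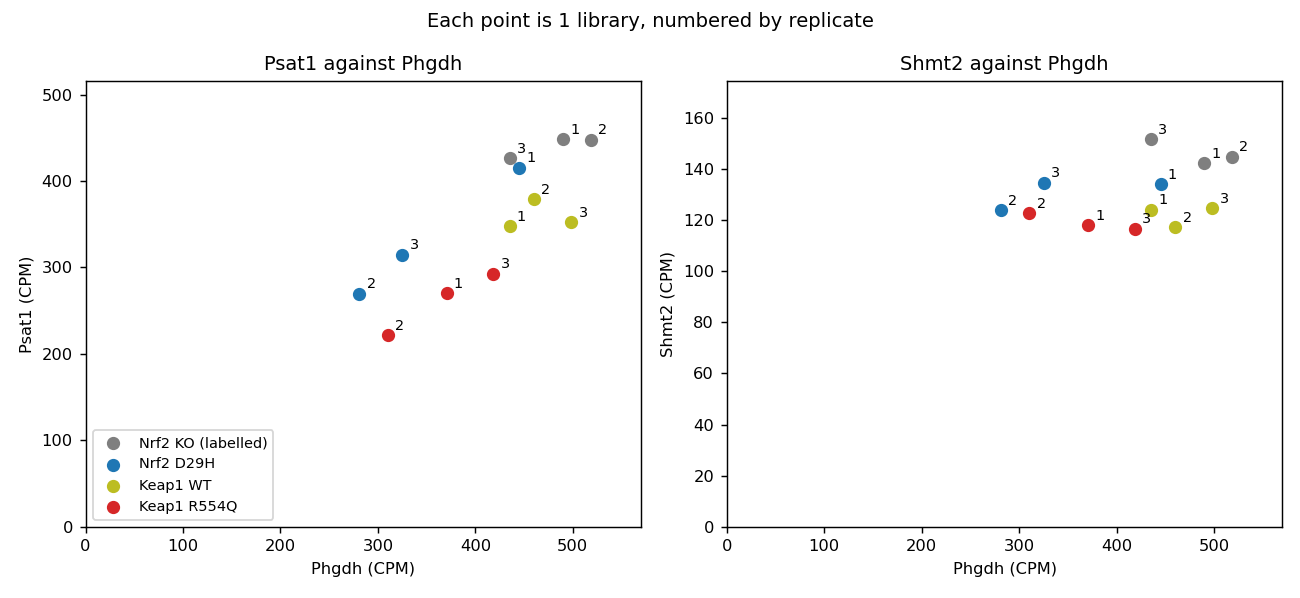
Psat1 (left) and Shmt2 (right) against Phgdh, all in CPM; each point is 1 library, coloured by group and numbered by replicate. Psat1 climbs with Phgdh within D29H, from 281 to 445 CPM of Phgdh, while Shmt2 stays between 124 and 135 CPM in the same libraries.

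Over all 12 libraries, the protein-coding genes most like Phgdh among 9083 with at least 10 CPM were Anxa3 (Pearson's r of log2 CPM 0.983), Ldha (0.979), Tbrg1 (0.973), Ddost (0.969) and Ciao1 (0.966). Psat1 came at rank 303 (r 0.818), Mthfd2 at 516 (r 0.771) and Psph at 623 (r 0.750). Ldha, the lactate dehydrogenase subunit of glycolytic cells, had log2 fold changes of -0.55 (Nrf2 comparison) and -0.41 (Keap1 comparison) (edgeR adjusted p 0.0215 and 0.0219). Since Ldha was picked for following Phgdh over these same libraries, its falls are no separate result. The tests of the other genes most like Phgdh are not given. Closest to Mthfd2 were Aig1 (r 0.965), Gtf2f2 (0.957), Snx5 (0.954), Lbh (0.951) and Dap3 (0.950), with Psph at rank 127 (r 0.847) and Psat1 at 202 (r 0.821). Neither list held another of the 9 enzymes in its first 5.

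Genes around the pathway were placed on lists drawn up by function. As a background for their calls in the Keap1 comparison, 2.4% of all genes were called lower and 3.77% higher. The folate cycle and transport list (16 of 17 tested) summed to 423 to 475 CPM in D29H and 402 to 447 CPM in the labelled knockout, overlapping. Of the same 16, 1 rose and 1 fell in the Keap1 comparison: Aldh1l1, the cytosolic relative of Aldh1l2, rose (log2 fold change 1.29, SE 0.23; edgeR adjusted p 0.00272) and the thymidylate synthase gene Tyms fell (-0.38, SE 0.08; 0.0118). Aldh1l1 was a low gene, with 24 to 34 reads per wild-type library and 67 to 78 in R554Q, and moved the opposite way to Aldh1l2 in the same libraries. Of 8 glycine cleavage and serine import genes none passed in the Nrf2 comparison in edgeR (2 at an unadjusted p under 0.05, a share near the 22.9% of all genes), and Gcsh, the lipoyl carrier of the glycine cleavage system, fell in the Keap1 one (-0.31, SE 0.09; edgeR adjusted p 0.0455). Of 6 methionine cycle and transsulfuration genes, Cth, which makes cysteine, fell in the Keap1 comparison (-0.48, SE 0.14; edgeR adjusted p 0.0495) and none passed in the Nrf2 one in edgeR (2 at an unadjusted p under 0.05). The 8 glycine and serine import genes summed to 392 to 421 CPM in D29H against 426 to 435 CPM in the labelled knockout, and to 399 to 443 CPM in R554Q against 447 to 462 CPM in Keap1 wild type, lower without overlap in both. In the Keap1 comparison no glycine gene fell with any 1 library left out except R554Q replicate 3 (2 fell), and no methionine cycle gene fell except without R554Q replicate 3 or wild-type replicate 1 (1 each). No gene of these last lists rose in either comparison by this test.

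Purine synthesis uses formyl units from this pathway. In the Nrf2 comparison 4 of its 11 genes fell and none rose: Paics (log2 fold change -0.46), Ppat (-0.44), Prps1 (-0.37) and Adsl (-0.37; edgeR adjusted p 0.0296 to 0.0493), beside 1.28% of all genes called lower. The 4 became 0 without D29H replicate 2 or 3 or labelled-knockout replicate 2, 2 without labelled-knockout replicate 3, 8 without D29H replicate 1 and 1 with GC and length offsets. In the Keap1 comparison none of the 11 passed in edgeR; 3 had an unadjusted p under 0.05, a share near the 24.2% of all genes that did, and the list's median was -0.11 against -0.31 in the Nrf2 comparison. The list summed to 759 to 914 CPM in D29H and 944 to 1072 CPM in the labelled knockout, without overlap, and overlapped in the Keap1 comparison (848 to 986 against 931 to 993 CPM). No purine gene passed when the alleles' effects were tested against each other (1 of the 11 at an unadjusted p under 0.05 in edgeR). All 11 differences were below zero, with a median of -0.24, where 49.1% of all genes were below zero. Among 10 serine and glycine carriers and serine users, Slc6a9, the glycine transporter GLYT1, rose in the Nrf2 comparison (0.43, SE 0.13, edgeR adjusted p 0.0497). It also rose in the mean over both alleles (0.41, SE 0.09, edgeR adjusted p 0.00428). In that mean 2 others of the 10 were called lower, beside 7.33% of all genes. In the Nrf2 comparison, though, no gene of the list rose by DESeq2, by limma or without any 1 library other than D29H replicate 1. None passed in the Keap1 comparison in edgeR (3 at an unadjusted p under 0.05, where 24.2% of all genes were). All 11 genes of that list, 1 of them untested, summed to 904 to 958 CPM in D29H against 959 to 1045 CPM in the labelled knockout, barely apart, and overlapped in the Keap1 comparison (887 to 1036 against 1009 to 1102 CPM).

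ATF4 and 17 of its other targets held calls in both directions. In the Nrf2 comparison none of the 18 passed in edgeR (8 at an unadjusted p under 0.05, where 22.9% of all genes were), with a median log2 fold change of -0.18. In the Keap1 comparison 3 fell, Asns (-0.41), Ddit3 (-0.34) and Atf4 itself (-0.31; edgeR adjusted p 0.0244), while 2 rose, the cystine carrier gene Slc7a11 (2.35), which NRF2 also drives, and Cebpb (0.91). In that comparison 2.4% of all genes were called lower and 3.77% higher. The 3 falls became 0 without R554Q replicate 1, 1 without R554Q replicate 2 or any 1 wild-type library, and 6 without R554Q replicate 3, where 4 rose. Atf4 had 214 ± 11.8 CPM in R554Q, 267 ± 7.27 CPM in Keap1 wild type, 250 ± 18.7 CPM in D29H and 277 ± 9.35 CPM in the labelled knockout. In the mean over both alleles 8 of the 18 fell, among them Asns (-0.36), Gars (-0.31), Slc7a5 (-0.29) and Atf4 (-0.23), and 3 rose, Slc7a11 (1.497) and Cebpb (0.64) the most (edgeR adjusted p under 0.05), beside 7.33% of all genes called lower and 8.49% higher. Leaving out 1 of the 12 libraries gave 4 to 10 falls, with 4 without R554Q replicate 1 or 2, D29H replicate 2 or 3 or wild-type replicate 3, and 5 without labelled-knockout replicate 2 or wild-type replicate 1. The 18 genes summed to 2114 to 2494 CPM in D29H against 2514 to 2601 CPM in the labelled knockout, and to 2302 to 2368 CPM in R554Q against 2420 to 2593 CPM in Keap1 wild type, lower without overlap in both. When the alleles' effects were tested against each other, 1 of the 18 was called in edgeR, with the D29H effect the lower. Over all genes 0.027% were called in either direction in that test. The 9 enzymes and these 18 genes had medians of -0.26 and -0.16 in the mean over both alleles.

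**Figure D4:**
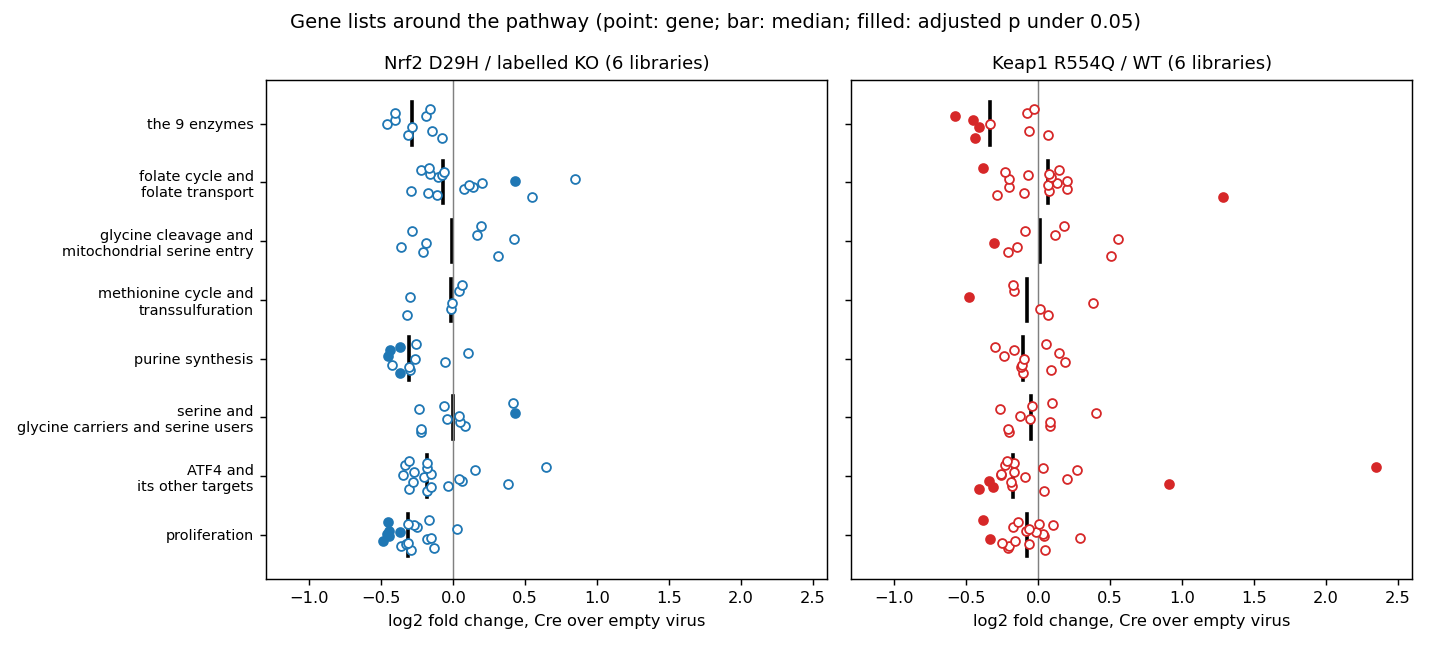
Log2 fold change of every tested gene of the 9 enzymes and 7 lists around them, adenoviral Cre over empty virus, in the Nrf2 (left) and Keap1 (right) comparisons; bars are list medians and filled points passed an adjusted p of 0.05 in edgeR. The enzymes' medians are -0.29 and -0.34, the purine list is at -0.31 and -0.11, and the filled point farthest right is Slc7a11 at 2.35.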

How the data were processed

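Per the labels' protocols, Novogene prepared the libraries (NEBNext Ultra) from RNA isolated with RNeasy Plus. A table for each allele holds raw counts of reads, as the authors deposited them. Per the file headers, these tables also give FPKM, a normalised signal averaged per group, and log2 fold changes with raw and adjusted p-values, none of which entered a test here. STAR, DESeq2 and the build mm10 are named in the submitters' processing notes; the counting tool, its annotation and whether it used strand are not given in the sources used here.

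The 9 genes were found by symbol. Members, lists and tests were chosen with earlier results of these data known. The main tests were run with edgeR 4.0.16 (R 4.3.3): filterByExpr, TMM scaling, quasi-likelihood test, Benjamini-Hochberg adjustment over all genes tested, calls at an adjusted p under 0.05. Each allele was tested on its own 6 libraries; the mean effect, the difference and the controls used 1 fit of all 12 over the 20844 genes in both tables. SE was computed as the absolute log2 fold change over the root of F. All 9 genes passed the filter. Named genes are the 9 in every comparison; from the 8 gene lists, called genes, at most the 5 with the largest change per list and comparison; Atf4, Nqo1, Nfe2l2 and Keap1; and the 5 genes most like Phgdh and Mthfd2. Smcr8, Ldha's tests and the cell type markers Lyz2, Des and Pdgfra were added after values were seen. A result of the folate list is not reported here. Scripts were tested on simulated data.

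Alternatives were RLE scaling, genes kept at a mean of 50 counts or more, no filter, DESeq2 1.42.0, limma 3.58.1 with trend (prior count 2), offsets for GC content and gene length (lowess, span 0.3), a replicate block, both together, all 12 libraries in one fit, and leaving out each library. Replicate pairs differed by more than sampling noise (chi-square per degree of freedom 4.66 to 23.2), so none was counted once.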

Additional observations from a re-analysis of the deposited data

How the results depend on the processing

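Across the alternatives the 9 genes' calls moved more than their directions. In the Nrf2 comparison, 0 of the 9 were called as reported, 4 with no filter, 2 by DESeq2, 1 by limma, 1 with GC and length offsets and 3 with all 12 libraries in one fit; leaving out a library gave 0 to 4. Genes called overall were 682, 1195 with no filter and 82 to 2192 with a library left out. In the Keap1 comparison, leaving out a library gave 2 to 5 of the 9; genes called were 872, 1502 with no filter, 509 with offsets and 238 to 2872 with a library left out. For the mean over both alleles, genes called were 2341, and 1094 to 3528 with a library left out (4 to 6 of the 9). For the difference between alleles, genes called were 4, 32 with no filter, 1 with a mean count of at least 50, 71 by DESeq2, 1 by limma and 0 to 26 with a library left out. For the controls, leaving out a library gave 2047 to 3119 genes, and 1 to 4 of the 9. The cause was not tested.

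Signs turned only for values near zero, none of them called. Ranges with a library left out: in the Keap1 comparison, Mthfd1l -0.14 to 0.015 and Mthfd1 -0.015 to 0.12; in the difference, Psat1 -0.16 to 0.18, with -0.052 without R554Q replicate 2, and Phgdh -0.35 to 0.016; between controls, Phgdh -0.0076 to 0.12 and Mthfd2 -0.053 to 0.010. With offsets, Phgdh was at -0.0019 and Mthfd2 at 0.0026 (0.0031 with block and offsets) between controls.

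The replicate numbers were not shown to pair libraries: deviations of same-numbered libraries correlated with r from -0.10 to -0.03 in the Nrf2 groups and from -0.22 to 0.04 in the Keap1 groups. With the replicate block, 2 of the 9 were called in the Nrf2 comparison (1 with block and offsets) and 1 between controls; genes called were 484 in the Keap1 comparison, 1400 for the mean and 0 for the difference, or 506, 1266 and 2 with block and offsets. Each of the 9 genes had at least 273 reads in every library; the part of depth in the calls was not tested.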

Other observations

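Between the empty-virus controls, some lists around the pathway held genes that differed, while none of the 11 purine genes was called in edgeR (4 at an unadjusted p under 0.05, where 31.4% of all genes were). Of 6 methionine cycle and transsulfuration genes tested, 3 were called higher in the labelled knockout than in Keap1 wild type and none lower (edgeR's quasi-likelihood test, adjusted p under 0.05): Cbs, which joins serine to homocysteine (log2 fold change 1.47, SE 0.34), Ahcy, which clears S-adenosylhomocysteine (1.25, SE 0.11), and Cth (0.57, SE 0.14). Of 8 glycine cleavage and serine import genes, 3 were higher, Amt (0.68), Sardh (0.53) and Gcat (0.48), and Sfxn3 was lower (-0.30). The folate list held 3 higher and 1 lower, led by Folr1 (-1.17) and Aldh1l1 (0.89). The background was 9.58% of genes called higher and 10.1% lower. Proliferation genes (1859 to 2100 against 1300 to 1378 CPM), macrophage markers (107 to 146 against 86.8 to 97.3 CPM) and fibroblast markers (18198 to 19631 against 14293 to 16575 CPM) also summed higher in the labelled knockout. Of the 7 fibroblast markers, though, 4 had log2 fold changes below zero. The part of these lists in the values above was not tested.

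In the mean over both alleles 4 of the 8 glycine cleavage and serine import genes tested fell and 2 rose, beside 7.33% of all genes called lower and 8.49% higher (edgeR adjusted p under 0.05). Those that fell were Gcat, Gcsh, Dld and the mitochondrial serine carrier gene Sfxn1 (log2 fold changes -0.26, -0.25, -0.21 and -0.19), and Amt rose the most (0.41). Leaving out 1 library gave 0 to 4 falls, with 0 without R554Q replicate 2, wild-type replicate 2 or D29H replicate 3, 1 without D29H replicate 2 or wild-type replicate 3, and 2 without R554Q replicate 1, wild-type replicate 1 or any 1 labelled-knockout library.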
